A study of Mus musculus with 36 samples.

Results

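The genes described here mark the neurons and glia of the intestinal wall. They were Ret, Elavl4, Tubb3, Uchl1, Sox10, S100b, Vip and Nos1, chosen by name as markers of these cells and matched by symbol to the Ensembl identifiers of the count tables. All 8 were found among the 52636 genes listed, and all 8 passed the filter on low counts in both sets of intestines. RNA sequencing was done on 30 intestines of E18.5 embryos, in groups of 3 per genotype, and on mouse embryonic fibroblasts (MEFs), 3 cultures of Mlkl-/- and 3 of Casp8 1xDA/1xDA Cflar-/- Mlkl-/-. The study asked what caspase-8 does in the embryo when it cannot cleave itself or cannot cleave anything, and when its partner cFLIP is missing.

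The D387A set held 6 genotypes. These were Mlkl-/- controls, Casp8 1xDA/1xDA embryos (the D387A knock-in, which blocks a self-cleavage of caspase-8), and Casp8 1xDA/1xDA embryos that also lacked Cflar (the cFLIP gene) and Mlkl (the executioner of necroptosis). To the last of these was added the loss of Casp1, of Casp1 and Ifnar1 (a subunit of the type I interferon receptor), or of Casp1 and Fadd (the adaptor that recruits caspase-8). The C362A set held 4 genotypes. These were its own Mlkl-/- controls and embryos with catalytically inactive caspase-8, Casp8 C362A/C362A Mlkl-/-, either alone, without Casp1, or without Cflar. Mlkl was absent by label from every intestine except the Casp8 1xDA/1xDA group, so that group differed from its controls in 2 genes. All alleles were present in every cell of the embryo, and whole intestine was sequenced. In such bulk samples, fewer cells of a type and less RNA per cell cannot be told apart. In the D387A set, the sample titles of the controls and of the Casp8 1xDA/1xDA Cflar-/- Mlkl-/- embryos opened with the same number and each of the other 4 genotypes carried a different one. The labels do not say what it stands for, and any effect of it cannot be told apart from genotype.

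The enteric nervous system arises from neural crest cells that migrate into the gut and form ganglia of neurons and glia between and beneath the muscle layers. Ret, the receptor for GDNF-family ligands, is needed for this colonization, and SOX10 is a transcription factor of the crest progenitors and of the glia that come from them. Elavl4 encodes an RNA-binding protein of neurons, Tubb3 a neuronal tubulin, and Uchl1 a ubiquitin hydrolase (PGP9.5) that is abundant in neurons. S100b encodes a calcium-binding protein of glia. Vip encodes vasoactive intestinal peptide, a transmitter that relaxes gut muscle, and Nos1 encodes the neuronal nitric oxide synthase, whose product does the same.

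On GRCm38, Ret (ENSMUSG00000030110) spans chr6:118151745-118197718 on the minus strand, Elavl4 (ENSMUSG00000028546) chr4:110203722-110351909 on the minus strand and Sox10 (ENSMUSG00000033006) chr15:79154908-79165240 on the minus strand. The other 5 lie on plus strands. They are Tubb3 (ENSMUSG00000062380) at chr8:123411424-123422015, Uchl1 (ENSMUSG00000029223) at chr5:66676091-66687234, S100b (ENSMUSG00000033208) at chr10:76253853-76261159, Vip (ENSMUSG00000019772) at chr10:5639218-5647617 and Nos1 (ENSMUSG00000029361) at chr5:117781032-117958840. Counts cover whole genes. Tubb3 overlaps Gm20388 on the same strand and Uchl1 overlaps Uchl1os on the opposite one, so their reads may be shared, whereas Ret, Elavl4, Sox10 and Vip overlap no annotated gene.

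The sequences just upstream of Vip, of Cartpt and Adcyap1, neuropeptide genes that rose with it, and of S100b, which fell, are shown here. These genes were picked with their changes known. Each is the 250 bases before an annotated start, 5′ to 3′ on the gene's strand, from RefSeq on GRCm38.p6. Capitals mark TGACG, the core letters of the cAMP response element, or the whole element TGACGTCA, which contains it.
Vip, chr10:5638968-5639217, plus strand: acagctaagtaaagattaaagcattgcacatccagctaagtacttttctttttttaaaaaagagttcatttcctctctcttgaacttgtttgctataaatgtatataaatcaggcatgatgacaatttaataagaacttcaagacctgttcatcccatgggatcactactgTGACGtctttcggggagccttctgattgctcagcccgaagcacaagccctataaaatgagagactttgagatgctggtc
Cartpt, chr13:99900684-99900933, minus strand: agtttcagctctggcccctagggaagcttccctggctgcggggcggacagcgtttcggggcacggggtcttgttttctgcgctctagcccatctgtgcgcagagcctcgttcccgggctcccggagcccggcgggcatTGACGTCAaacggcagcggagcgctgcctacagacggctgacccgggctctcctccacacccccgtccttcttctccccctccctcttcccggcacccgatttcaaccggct
Adcyap1, chr17:93198767-93199016, plus strand: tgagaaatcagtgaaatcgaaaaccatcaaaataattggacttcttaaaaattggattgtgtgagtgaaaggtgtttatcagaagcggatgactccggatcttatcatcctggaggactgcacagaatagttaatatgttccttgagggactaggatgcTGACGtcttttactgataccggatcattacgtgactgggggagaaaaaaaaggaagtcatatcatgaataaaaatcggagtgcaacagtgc
S100b, chr10:76253586-76253835, plus strand: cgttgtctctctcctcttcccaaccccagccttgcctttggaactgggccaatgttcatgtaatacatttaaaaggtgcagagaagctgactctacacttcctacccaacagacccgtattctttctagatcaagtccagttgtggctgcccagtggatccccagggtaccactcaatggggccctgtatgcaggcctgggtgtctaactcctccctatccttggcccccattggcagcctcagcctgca
TGACG opened 79 bases before the start of Vip and 91 bases before this start of Adcyap1, and the whole element opened 112 bases before the start of Cartpt. On either strand, TGACG was found in 17.8% and TGACGTCA in 1.55% of the 32851 upstream windows of this length. The AP-1 letters TGANTCA (6.75% of windows), the STAT letters TTCNNNGAA (7.02%) and the SOX letters ACAAAG (16.5%) were in none of these 4 windows. A second annotated start of Adcyap1, whose window at chr17:93198918-93199167 overlaps the one shown, holds the same TGACG and also ACAAAG. Windows were found for 6 of the 8 genes, the exceptions being Ret and Sox10, with 9 annotated starts in all. TGACG was in the windows of 5 of these 9 starts, those of Vip and Nos1 and 3 of the 4 of Elavl4, 2 of which overlap and share 1 match. Nos1 fell and Elavl4 did not pass in the first comparison below. In the lists read below, TGACG was in at least 1 window of 7 of the 11 transmitter and peptide genes with windows. It was in those of 5 of 9 progenitor and signalling genes, 0 of 5 pan-neuronal genes and 0 of 3 glial genes. A match of letters is a description and not a shown binding site, and its part in the changes was not tested.

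Between 17943524 and 27721024 reads per library fell on genes in the D387A set, and between 21757868 and 31052238 in the C362A set. Casp1 stayed at or below 0.212 CPM (counts scaled to library size) in the 12 intestines labelled as lacking it and at or above 42.6 CPM in the other 18. Fadd was at most 1.01 CPM in its 3 knockout intestines against at least 25.5 CPM elsewhere, and Ifnar1 was 33.2 to 37.9 CPM against at least 76.1 CPM. Reads on Cflar (33.8 to 59.4 CPM where it was deleted, 43.9 to 72.5 CPM elsewhere) and on Mlkl did not separate the genotypes, so they check nothing about those deletions. The Cflar range takes together the different deletions of both sets. In counts, the members ran from 20 reads for S100b in its lowest intestine to 3425 reads for Vip in its highest. Some libraries stood apart from their replicates in the chi-square per gene between pairs. Replicate 3 of Casp8 1xDA/1xDA Cflar-/- Mlkl-/- Casp1-/- gave 69.2 and 70.8 against 13.2 for the other pair, and replicate 3 of Casp8 C362A/C362A Cflar-/- Mlkl-/- gave 66.2 and 65.6 against 24.3. In the Ifnar1-deficient genotype replicate 1 gave 34.1 and 29.9 against 5.51, and replicates 1 and 3 of the C362A controls were 68.9 apart. Calls that changed without one of these libraries are named with the result. Levels below are RPKM, reads scaled to gene length and to TMM-scaled library size, which were set within each set of intestines and within the MEFs separately.

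**Figure D1:**
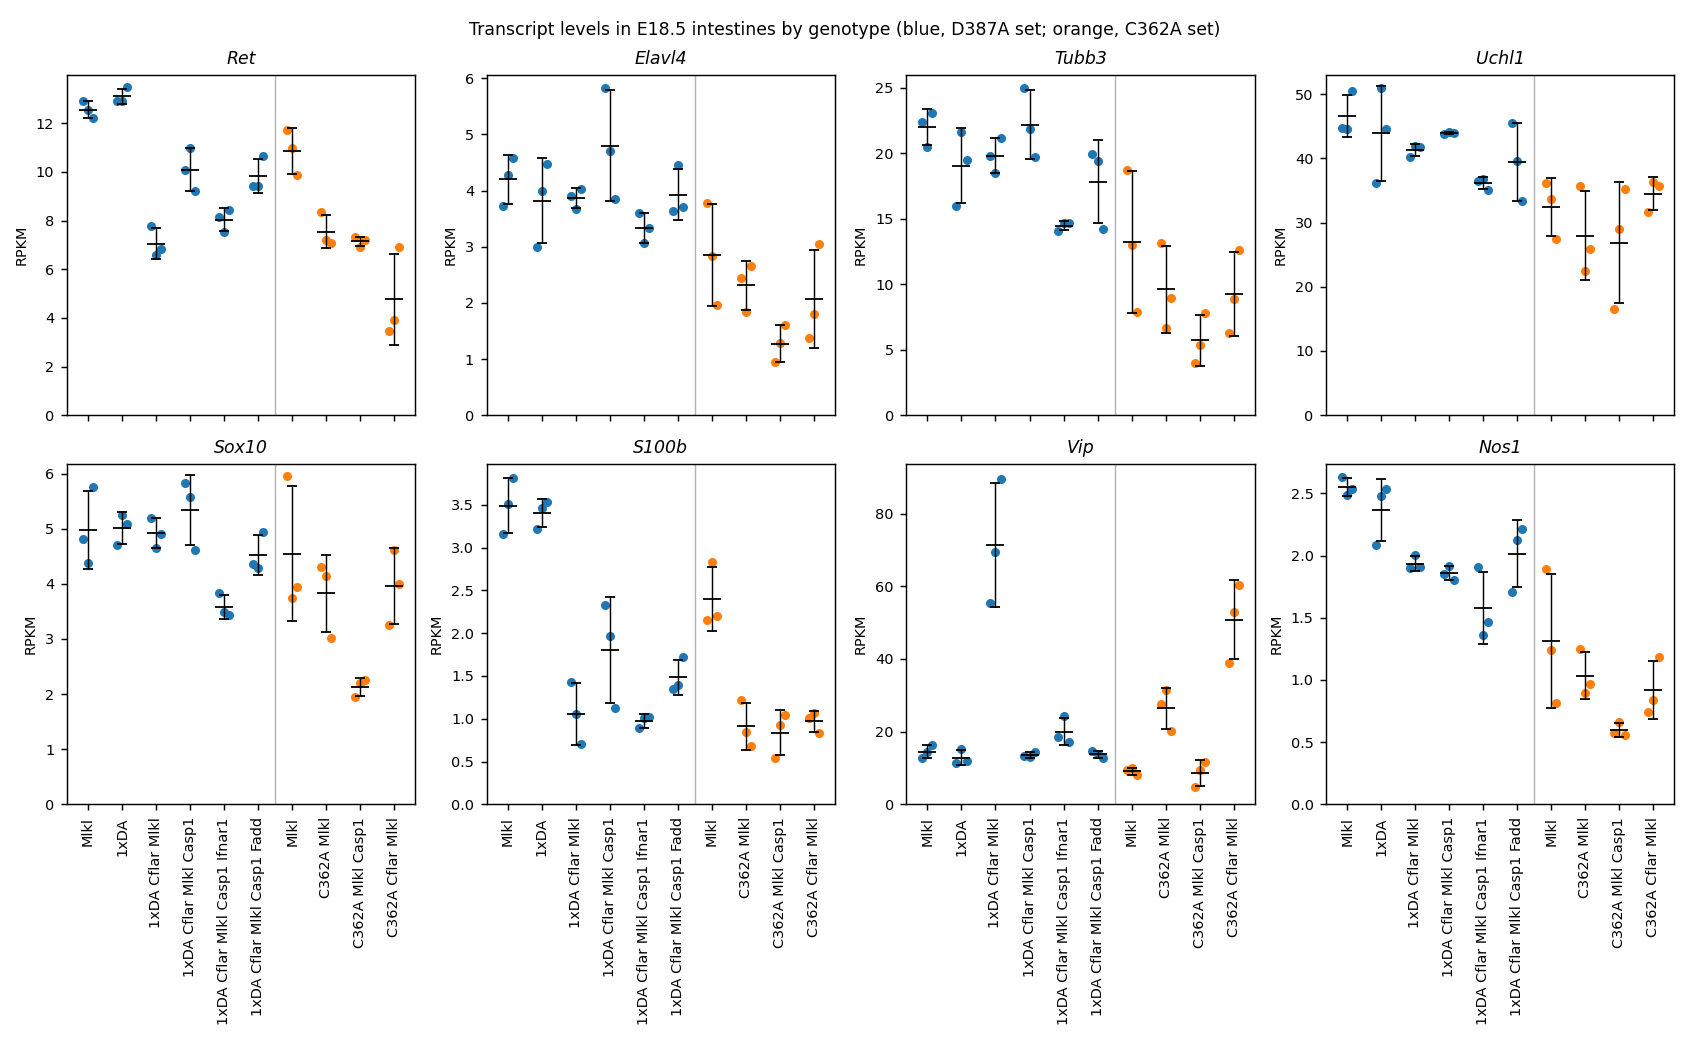
RPKM (vertical axes, from 0) of each gene in each E18.5 intestine, grouped by genotype along the horizontal axes. Points are single intestines, with the mean and SD of 3 in black. Vip stands at 55.5 to 89.5 in the 3 Casp8 1xDA/1xDA Cflar-/- Mlkl-/- intestines, above the other 15 of the D387A set, while S100b is lower there than in the controls.

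The first comparison set Casp8 1xDA/1xDA Cflar-/- Mlkl-/- intestines against Mlkl-/- intestines. Vip rose 4.93-fold, while S100b fell 3.30-fold, Ret 1.78-fold and Nos1 1.32-fold. The general neuronal genes Elavl4, Tubb3 and Uchl1 and the progenitor and glial factor Sox10 did not pass the test. So 1 of 8 genes rose and 3 fell, in a comparison where 59.4% of all 18360 genes tested passed at an adjusted p under 0.05. Over all genes 29.9% were higher and 29.5% lower. The study's own thresholds, an absolute log2 fold change over 1 as well as an adjusted p under 0.05, were met by Vip and S100b, 2 of the 8, and by 22.2% of all genes. The groups did not overlap for 5 of the 8, against 68.1% of all genes.

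Vip was at 12.7, 14.4 and 16.3 RPKM in the controls and at 55.5, 69.4 and 89.5 RPKM without cFLIP. The lowest intestine without cFLIP was more than 3 times the highest control. The log2 fold change was 2.30 ± 0.17 (SE, n = 3 and 3; adjusted p = 3.2e-09, edgeR quasi-likelihood test, Benjamini-Hochberg adjusted, as for every adjusted p here). S100b was at 3.16, 3.50 and 3.81 RPKM in the controls and at 1.43, 1.05 and 0.70 RPKM in the compound mutants (log2 fold change -1.72 ± 0.24, adjusted p = 8.34e-06 by edgeR). These rested on 26 to 49 reads per mutant intestine and 93 to 113 per control, and the groups did not overlap. S100b overlaps Dip2a on the opposite strand, and how strand was treated in counting is not given in the sources used here, so reads of Dip2a may be included.

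Ret, the GDNF-family receptor, was at 12.9, 12.5 and 12.2 RPKM in controls and at 7.76, 6.56 and 6.82 RPKM in the mutants (log2 fold change -0.83 ± 0.08, adjusted p = 1.17e-07 by edgeR). The 6 values separated by group with a wide gap. Nos1 went from 2.63, 2.49 and 2.54 RPKM to 1.90, 2.00 and 1.91 RPKM (log2 fold change -0.40 ± 0.12, adjusted p = 0.00835 by edgeR). With the Mlkl-/- intestines of both sets pooled, its log2 fold change was 0.0353. That fit has no term for the set. Mean Nos1 was 2.55 RPKM in the D387A controls and 1.31 RPKM in the C362A controls, each scaled within its set. Pooled controls, here and below, therefore cannot tell genotype apart from set. The overlap of Nos1 with Gm37028 on its own strand and with Gm26995 on the other adds uncertainty to its counts.

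The 4 genes that did not pass had small changes with narrow errors. The log2 fold change was -0.12 ± 0.15 for Elavl4, -0.15 ± 0.12 for Tubb3, -0.17 ± 0.11 for Uchl1 and -0.02 ± 0.12 for Sox10. Tubb3 was at 22.4, 20.4 and 23.1 RPKM in controls and 19.8, 18.45 and 21.2 RPKM in mutants, and Sox10 at 4.81, 4.38 and 5.75 RPKM against 5.19, 4.65 and 4.91 RPKM. The groups overlapped for Tubb3, Sox10 and Elavl4. For Uchl1 they did not, at 44.7, 44.6 and 50.4 RPKM against 40.1, 41.9 and 41.8 RPKM, although its test did not pass (adjusted p = 0.182 by edgeR) and 68.1% of all genes did not overlap in this comparison.

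Other cell types moved in the same intestines. All 8 absorptive enterocyte genes fell (median log2 fold change -3.96), with their summed level at 44420.1 to 51249.7 CPM in controls and 2365.8 to 4360.3 CPM in mutants. Of 8 smooth muscle genes 6 rose (median 0.52, summed level 5348.6 to 5830.4 CPM in controls and 7326.6 to 9180.2 CPM in mutants), and of 5 macrophage genes 4 rose and 1 fell (summed level 345 to 374 and 268 to 356 CPM). Of 5 fibroblast genes 3 rose (2931 to 3281 CPM in controls and 3924 to 4064 CPM in mutants), as did the 1 adipocyte gene (80.0 to 98.2 and 132 to 157 CPM), and of 5 pancreas genes 1 rose and 1 fell (23.2 to 45.2 and 8.76 to 14.99 CPM). The part of these shifts in the changes of Vip, S100b, Ret and Nos1 was not tested.

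Casp8 1xDA/1xDA intestines, which kept Cflar, differed from the Mlkl-/- controls in none of the 8 genes by edgeR, limma-voom or DESeq2, and 0 of the 8 had an unadjusted p under 0.05, against 5.02% of all genes. Over all genes 0.00545% passed by edgeR and by limma-voom and 0.0273% by DESeq2. The study's thresholds were met by 0 of the 8, and 0 of the 8 had groups that did not overlap, against 15.6% of all genes. Vip was at 11.3, 15.4 and 11.97 RPKM and S100b at 3.22, 3.46 and 3.53 RPKM, both within or next to the range of the controls.

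Without Casp1, Vip stood near the level of the controls in the compound mutants. In intestines of Casp8 1xDA/1xDA Cflar-/- Mlkl-/- Casp1-/- Vip was at 13.2, 13.2 and 14.4 RPKM. That was 5.26-fold lower than with Casp1 present (log2 fold change -2.40 ± 0.17, adjusted p = 5.97e-09 by edgeR) and not different from controls by the test (-0.09 ± 0.17, adjusted p = 0.736). Against the genotype with Casp1, Ret was higher by 0.52 ± 0.08 on the log2 scale (adjusted p = 5.3e-05 by edgeR) and S100b by 0.78 ± 0.25 (adjusted p = 0.0162), so 2 genes rose and 1 fell where 46.9% of all genes passed (24.5% higher, 22.5% lower). Vip alone met the study's thresholds, as did 13.4% of all genes, and the groups did not overlap for 3 of the 8, against 53.2%. Ret at 10.1, 10.97 and 9.23 RPKM and S100b at 2.33, 1.97 and 1.12 RPKM stayed below their controls. The rise of S100b was lost without replicate 3 of the genotype with Casp1 (adjusted p = 0.0918 by edgeR), without replicate 1 (0.103) or replicate 2 (0.056) of the genotype lacking it, and in a fit of only these groups (0.12). Elavl4 passed, higher, without replicate 3 of the genotype lacking Casp1 (0.0185). All 8 enterocyte genes were higher without Casp1 (median log2 fold change 3.17) and 7 of 8 smooth muscle genes lower (median -0.62). All 5 erythroid genes were higher (median 1.98), 3 of 5 fibroblast genes and the 1 adipocyte gene lower (medians -0.40 and -0.36) and 1 of 3 genes of interstitial cells of Cajal higher, and the part of these other cells was not tested.

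Set against the Mlkl-/- controls, the Casp1-deficient compound mutants had 0 genes higher and 3 lower of the 8, where 21.4% of all genes passed. These were S100b (-0.95 ± 0.23, adjusted p = 0.00746 by edgeR), Nos1 (-0.46 ± 0.12, adjusted p = 0.0124) and Ret (-0.32 ± 0.08, adjusted p = 0.0101). In this comparison 10.2% of all genes were higher and 11.2% lower, and the study's thresholds were met by 0 of the 8 and 4.34% of all genes. For 4 of the 8 the groups did not overlap, against 37.5% of all genes. Nos1 was at 1.85, 1.92 and 1.80 RPKM, close to its level with Casp1 present. With the controls of both sets pooled, the calls of Ret and Nos1 were lost (adjusted p = 0.29 and 0.929 by edgeR). That of S100b was lost in a fit of only these groups (0.0533). Enterocyte genes were lower (5 of 8, summed level 23730.2 to 33759.7 CPM against 44420.1 to 51249.7 CPM in controls) and 3 of 5 erythroid genes higher (749.9 to 4339 CPM against 510.6 to 1094.1 CPM). Of 5 macrophage genes 3 were higher (median log2 fold change 0.71) and of 5 pancreas genes 3 were lower (median -2.04). The summed level of smooth muscle genes was 4817 to 5190 CPM against 5349 to 5830 CPM in controls, with 0 of 8 passing, and the part of these other cells was not tested.

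**Figure D2:**
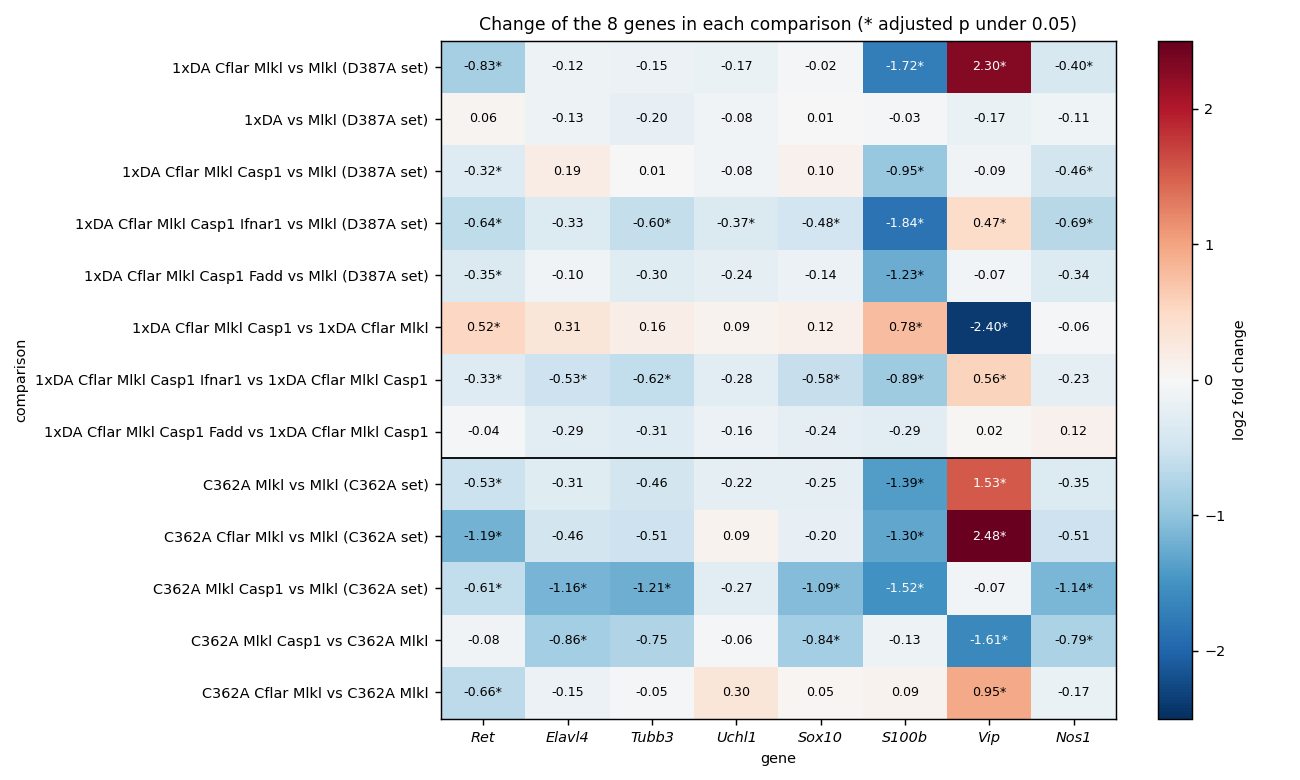
Log2 fold change (colour and number) of the 8 genes (columns) in the 13 comparisons between genotypes (rows), with asterisks at an adjusted p under 0.05 and a line between the D387A and C362A sets. Vip has its 3 highest values, 2.30, 1.53 and 2.48, in the comparisons with controls of mutants that kept Casp1 and lacked Cflar or caspase-8 activity. S100b passes with a negative value in every comparison with controls except that of Casp8 1xDA/1xDA (-0.03).

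Adding the loss of Ifnar1 lowered most of the 8 genes. In intestines of Casp8 1xDA/1xDA Cflar-/- Mlkl-/- Casp1-/- Ifnar1-/- 5 genes were lower and 1 higher than in those with Ifnar1, where 30.6% of all genes passed (15.5% higher, 15.1% lower). None of the 8 met the study's thresholds, against 5.31% of all genes, and 7 of the 8 did not overlap, against 35.7%. Tubb3 was at 14.1, 14.6 and 14.7 RPKM against 24.9, 21.8 and 19.7 RPKM (log2 fold change -0.62 ± 0.13, adjusted p = 0.00218 by edgeR). Sox10 was at 3.83, 3.49 and 3.43 RPKM against 5.83, 5.57 and 4.62 RPKM (-0.58 ± 0.12, adjusted p = 0.00218 by edgeR). Both groups were fully apart for both genes. Elavl4 (-0.53 ± 0.15), S100b (-0.89 ± 0.25) and Ret (-0.33 ± 0.08) fell as well. Vip rose by 0.56 ± 0.16, from 13.2, 13.2 and 14.4 RPKM to 18.6, 24.3 and 17.2 RPKM. In a fit of only these 2 genotypes the calls of Tubb3 and Sox10 remained and those of the other 4 were lost, with adjusted p by edgeR of 0.0662 for Ret, 0.073 for Elavl4, 0.0814 for S100b and 0.0528 for Vip. Over all genes 7.51% passed in that fit. Single libraries also decided 3 of the calls. Vip was lost without replicate 1 or 2 of the genotype with Ifnar1 or replicate 2 of the other (adjusted p = 0.0589, 0.0602 and 0.106 by edgeR). Elavl4 was lost without replicate 1 of the former or replicate 2 of the latter (0.108 and 0.0694), and S100b without replicate 1 or 2 of the former (0.0884 and 0.0543). Nos1 passed, lower, without replicate 1 of the latter (0.0144). Of 5 erythroid genes 4 were lower (median log2 fold change -2.76). Lower too were 2 of 3 genes of interstitial cells of Cajal (median -0.33, summed level 82.5 to 89.97 CPM with Ifnar1 and 63.3 to 75.8 CPM without) and 1 of 5 fibroblast genes (median -0.24, 3042.5 to 3589.98 CPM with Ifnar1 and 2544.3 to 2683.1 CPM without). Of 5 pancreas genes 4 were higher (median 2.25), as were 2 of 9 enteroendocrine genes (median 0.33), and the part of these other cells was not tested.

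Against Mlkl-/- controls, the Ifnar1-deficient genotype had 6 genes lower and 1 higher, the most of any comparison with controls in the D387A set, where 48.3% of all genes passed (24.7% higher, 23.6% lower). The study's thresholds were met by S100b, and by 12.4% of all genes. All 8 genes had groups that did not overlap, as did 56.9% of all genes. S100b was at 0.887, 1.01 and 1.03 RPKM (log2 fold change -1.84 ± 0.24, adjusted p = 1.26e-05 by edgeR), and Nos1 was at 1.91, 1.36 and 1.47 RPKM (-0.69 ± 0.12, adjusted p = 0.000177 by edgeR). Ret fell by 0.64, Tubb3 by 0.60, Sox10 by 0.48 and Uchl1 by 0.37 on the log2 scale. Elavl4 was the exception (-0.33 ± 0.15, adjusted p = 0.0825 by edgeR), and it passed in a fit of only these groups (0.0432). The higher Vip (0.47 ± 0.16, adjusted p = 0.0265 by edgeR) was lost without control replicate 1 or 2 (0.116 and 0.067) or replicate 2 of the mutant (0.162). The lower Uchl1 was lost without control replicate 3 (0.0545). With pooled controls Tubb3 (adjusted p = 0.409 by edgeR), Uchl1 (0.628) and Nos1 (0.356) were lost. Smooth muscle genes (4 of 8 fell, median log2 fold change -0.27), enteroendocrine genes (6 of 9 rose, median 0.65) and macrophage genes (4 of 5 rose, median 1.14) moved in this comparison too. The summed levels of enterocyte genes (27718 to 39967 CPM against 44420 to 51250 CPM in controls, 3 of 8 lower and 1 higher) and fibroblast genes (2544 to 2683 against 2931 to 3281 CPM, 1 of 5 lower) also lay below those of the controls, and the part of these other cells was not tested.

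Loss of Fadd on top of Casp1 changed none of the 8 genes by edgeR, limma-voom or DESeq2, where 17.9% of all genes passed by edgeR (10.5% higher, 7.35% lower), 18.3% by limma-voom and 20.4% by DESeq2, and 3.44% met the study's thresholds. The groups overlapped for all 8, while 29.6% of all genes did not overlap. At an unadjusted p under 0.05, 1 of the 8 counted, against 31.6% of all genes. Without replicate 3 of the genotype with Fadd, Elavl4 and Tubb3 passed (adjusted p = 0.0474 and 0.0375 by edgeR), both lower. Against Mlkl-/- controls, S100b (1.34, 1.39 and 1.72 RPKM, log2 fold change -1.23 ± 0.23, adjusted p = 0.0013 by edgeR) and Ret (9.43, 9.43 and 10.6 RPKM, -0.35 ± 0.08, adjusted p = 0.00522) were lower, where 18.4% of all genes passed (9.97% higher, 8.40% lower). S100b met the study's thresholds, as did 3.78% of all genes, and 4 of the 8 did not overlap, against 38.0%. The summed levels of smooth muscle genes (4548 to 5026 CPM against 5349 to 5830 CPM in controls) and fibroblast genes (2502.5 to 2856 against 2931 to 3281 CPM) lay below those of the controls and that of macrophage genes above (436 to 461 against 345 to 374 CPM), with 0 of these 8, 5 and 5 genes passing, and their part was not tested. Vip was at 14.7, 13.9 and 12.8 RPKM, within the range of the controls. The lower Ret was lost with pooled controls (adjusted p = 0.223 by edgeR), and S100b no longer met the study's thresholds there. Nos1 (-0.34, adjusted p = 0.0577 by edgeR) passed without mutant replicate 3 (0.0409), with the stricter filter (0.0469) and by limma-voom (0.0439), and Uchl1 passed without mutant replicate 1 (0.0389).

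In the C362A set the controls themselves varied more in the neuronal genes. Tubb3 was at 18.7, 12.97 and 7.91 RPKM in the 3 Mlkl-/- intestines and Elavl4 at 3.77, 2.83 and 1.95 RPKM. The coefficient of variation of Tubb3 within a genotype ran from 33.7% to 41.1% in the C362A set and from 2.27% to 17.8% in the D387A set. Replicate 1 of these controls was the highest of the 3 for Elavl4, Tubb3, Uchl1, Sox10, Nos1 and Ret. Larger errors in this set therefore apply to the neuronal genes.

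Casp8 C362A/C362A Mlkl-/- intestines had higher Vip and lower S100b and Ret than Mlkl-/- controls, so 1 gene rose and 2 fell, where 42.1% of all genes passed (22.4% higher, 19.7% lower). Vip and S100b, 2 of the 8, met the study's thresholds, against 18% of all genes, and 3 of the 8 did not overlap, against 53.6%. Vip was at 9.35, 9.96 and 8.03 RPKM in controls and 27.5, 31.4 and 20.3 RPKM in mutants, with the groups apart (log2 fold change 1.53 ± 0.26, adjusted p = 0.000305 by edgeR). S100b fell from 2.16, 2.83 and 2.20 RPKM to 1.22, 0.84 and 0.682 RPKM (-1.39 ± 0.27, adjusted p = 0.000809 by edgeR). Ret fell from 11.7, 10.99 and 9.87 RPKM to 8.34, 7.20 and 7.09 RPKM (-0.53 ± 0.19, adjusted p = 0.0384 by edgeR). The fall of Ret was lost without control replicate 1 or 2 (adjusted p = 0.0882 and 0.0845 by edgeR) or mutant replicate 2 or 3 (0.111 and 0.115). With pooled controls 6 genes fell and 1 rose, where 25.9% of all genes fell and 28.6% rose. Enterocyte genes were lower (5 of 8, median log2 fold change -1.31) and macrophage genes higher (4 of 5, median 1.46). Enteroendocrine genes were higher (6 of 9, median 0.54) and erythroid genes lower (4 of 5, median -1.01), and the part of these other cells was not tested.

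Without Cflar as well, Vip was higher still and Ret lower. In intestines of Casp8 C362A/C362A Cflar-/- Mlkl-/- Vip was at 39.0, 53.0 and 60.4 RPKM, 5.57-fold above controls (log2 fold change 2.48 ± 0.27, adjusted p = 3.16e-06 by edgeR). Ret was at 3.48, 3.90 and 6.89 RPKM (-1.19 ± 0.19, adjusted p = 0.000135 by edgeR) and S100b at 1.01, 1.07 and 0.838 RPKM (-1.30 ± 0.27, adjusted p = 0.00101). These 3 of the 8 passed, met the study's thresholds and did not overlap. Over all genes 52.8% passed (27.9% higher, 24.9% lower), 24.6% met the study's thresholds and 55.0% did not overlap. With pooled controls 5 genes fell and 1 rose, where 29.1% of all genes fell and 33.1% rose. Without mutant replicate 3, Elavl4 (adjusted p = 0.018 by edgeR) and Nos1 (0.0333) also passed, and Nos1 did so without control replicate 3 (0.0165). Enterocyte genes fell here too (8 of 8, median log2 fold change -3.19) and 5 of 8 smooth muscle genes rose (median 0.77). Of the 5 pancreas genes tested 4 rose, of 5 macrophage genes 4 rose and 1 fell, of 9 enteroendocrine genes 4 rose and 2 fell, of 3 genes of interstitial cells of Cajal 1 rose and 2 fell, the 1 adipocyte gene rose, and the part of these other cells was not tested.

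Cflar loss itself, tested against Casp8 C362A/C362A Mlkl-/- intestines, raised Vip by 0.95 ± 0.25 (adjusted p = 0.0186 by edgeR) and lowered Ret by 0.66 ± 0.19 on the log2 scale (adjusted p = 0.0273), where 19.4% of all genes passed (6.95% higher, 12.4% lower). The study's thresholds were met by 0 of the 8 and 6.06% of all genes, and 2 of the 8 did not overlap, against 32.3%. Each of these calls depended on single libraries. Vip was lost without replicate 1 or 3 of the genotype with Cflar (adjusted p = 0.0523 and 0.0962 by edgeR) or replicate 2 of the other (0.0594). Ret was lost without any replicate of the genotype with Cflar (0.0981, 0.0542 and 0.059) or replicate 1 or 2 of the other (0.107 and 0.119), and in a fit of only these groups (0.0894). All 8 enterocyte genes were lower without Cflar (summed level 20148.4 to 24815.7 CPM with it and 3466.6 to 10140.9 CPM without) and 3 of 8 smooth muscle genes were higher (median log2 fold change 0.61). Lower too were 2 of 5 macrophage genes (median -0.46) and 2 of 9 enteroendocrine genes (median -0.34), the 1 adipocyte gene was higher (0.95), and the part of these other cells was not tested.

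The effect of the Cflar-deficient genotypes relative to their own controls did not differ by the test between D387A and C362A caspase-8 for any of the 8 genes by edgeR or limma-voom, nor by DESeq2 for the 4 of them (Ret, Tubb3, Uchl1 and Vip) that it gave an adjusted p. Over all genes 0.127% passed by edgeR (0.0509% higher, 0.0764% lower) and 0.0764% met the study's thresholds. By limma-voom 0.0713% passed, and by DESeq2 10.8% of the 8978 genes that it gave an adjusted p. By edgeR 0 of the 8 had an unadjusted p under 0.05, against 20.6% of all genes. The difference in log2 fold change was -0.18 ± 0.31 for Vip, -0.42 ± 0.36 for S100b and 0.35 ± 0.20 for Ret. For Ret it passed without replicate 3 of Casp8 C362A/C362A Cflar-/- Mlkl-/- (0.72, adjusted p = 0.002 by edgeR). By the paper's methods the Cflar deletion was larger in the D387A line than in the C362A line, so the genotypes compared also differed in that allele.

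Loss of Casp1 in intestines of Casp8 C362A/C362A Mlkl-/- lowered 4 of the 8 genes, where 33.5% of all genes passed (17.9% higher, 15.5% lower). Vip met the study's thresholds, as did 11.3% of all genes, and 4 of the 8 did not overlap, against 53.5%. Vip was at 4.70, 9.54 and 11.8 RPKM, in the range around its controls (against the genotype with Casp1, log2 fold change -1.61 ± 0.27, adjusted p = 0.000407 by edgeR). Sox10 was at 1.94, 2.19 and 2.26 RPKM against 4.31, 4.15 and 3.02 RPKM (-0.84 ± 0.21, adjusted p = 0.00689 by edgeR). The groups did not overlap for either gene. Elavl4 (0.943, 1.28 and 1.60 RPKM, -0.86 ± 0.30, adjusted p = 0.0419 by edgeR) and Nos1 (0.570, 0.663 and 0.560 RPKM, -0.79 ± 0.27, adjusted p = 0.0338) fell less firmly. Nos1 was lost without any replicate of either group but replicate 2 of the genotype with Casp1 (adjusted p from 0.0545 to 0.131 by edgeR). Elavl4 was lost without replicate 1 or 3 of the genotype with Casp1 (0.103 and 0.133) or replicate 1 or 2 of the other (0.147 and 0.0961). Tubb3 (-0.75 ± 0.34, adjusted p = 0.109 by edgeR) passed with no filter (0.0195) or in a fit of only these groups (0.0313). Of 8 smooth muscle genes 4 were lower (median log2 fold change -0.72) and of 8 enterocyte genes 7 were higher (median 1.54). All 3 genes of interstitial cells of Cajal were lower (median -0.57), as were 4 of 5 macrophage genes (median -0.78) and 2 of 5 fibroblast genes (median -0.46), and the part of these other cells was not tested.

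Against Mlkl-/- controls, 6 of 8 genes were lower in intestines of Casp8 C362A/C362A Mlkl-/- Casp1-/-, where 36.0% of all genes passed (19.0% higher, 17.1% lower). The study's thresholds were met by 5 of the 8, all but Ret of those 6, and by 10.5% of all genes, and 6 of the 8 did not overlap, against 51.0%. S100b was at 0.542, 0.925 and 1.05 RPKM (log2 fold change -1.52 ± 0.28, adjusted p = 0.000866 by edgeR). Elavl4 (-1.16 ± 0.30), Tubb3 (-1.21 ± 0.34), Sox10 (-1.09 ± 0.21) and Nos1 (-1.14 ± 0.27) had similar falls, and Ret was lower by 0.61 ± 0.19. Vip (-0.07 ± 0.27) and Uchl1 (-0.27 ± 0.23) did not pass. The lower Tubb3 was lost without control replicate 1 (adjusted p = 0.0673 by edgeR) or mutant replicate 1 (0.0579). The lower Ret was lost without control replicate 1 or 2 or any mutant replicate (0.0501 to 0.067). Smooth muscle genes had a median log2 fold change of -0.61 in this comparison, with 3 of 8 lower. Of 3 genes of interstitial cells of Cajal 2 were lower (median -0.50, summed level 71.8 to 78.5 CPM in controls and 46.3 to 58.2 CPM in mutants), as were 2 of 5 fibroblast genes (median -0.47) and 2 of 5 erythroid genes (median -0.67). Macrophage genes were higher (3 of 5, median 0.75, summed level 327 to 396 CPM in controls and 493 to 529 CPM in mutants), as were 2 of 9 enteroendocrine genes (median 0.14, 343 to 384 and 451 to 535 CPM). The part of these other cells was not tested.

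The effect of losing Casp1 differed between the 2 backgrounds for 3 of the 8 genes, where 16.9% of all genes passed the test of the difference (10.9% higher, 6.03% lower). Elavl4 met the study's thresholds, as did 5.73% of all genes. Tubb3 and Nos1 passed as well, making 5 of 8, with no filter, with the filter at a mean of 50 reads and by DESeq2. The log2 fold change of Elavl4 with Casp1 loss was 0.31 in intestines of Casp8 1xDA/1xDA Cflar-/- Mlkl-/-, which did not pass by itself (adjusted p = 0.101 by edgeR), and -0.86 in intestines of Casp8 C362A/C362A Mlkl-/- (difference 1.19 ± 0.33, adjusted p = 0.0159 by edgeR). For Sox10 the values were 0.12, which did not pass by itself (adjusted p = 0.418 by edgeR), and -0.84 (difference 0.99 ± 0.23, adjusted p = 0.00477). For Ret they were 0.52 and -0.08, of which the second did not pass (adjusted p = 0.782 by edgeR, difference 0.62 ± 0.20, adjusted p = 0.0369). The backgrounds also differed in Cflar, which was present in the second. Vip fell in both, by 2.40 and 1.61 on the log2 scale, and the difference did not pass (-0.76 ± 0.32, adjusted p = 0.0956 by edgeR). It passed without replicate 1 of Casp8 C362A/C362A Mlkl-/- Casp1-/- (adjusted p = 0.0133 by edgeR). Each difference comes from 1 fit over both sets and the changes within a background from the fit of its set.

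Ret passed in only 3 of 12 fits that each left out 1 library (adjusted p up to 0.0944 by edgeR), and Elavl4 was lost without replicate 1 of either Casp1-deficient genotype (0.0526 and 0.0518). S100b passed without replicate 1 of Casp8 1xDA/1xDA Cflar-/- Mlkl-/- (0.0432) or replicate 3 of its Casp1-deficient counterpart (0.0202). Tubb3 passed without replicate 2 of Casp8 C362A/C362A Mlkl-/- (0.041) or replicate 3 of its Casp1-deficient counterpart (0.0277).

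**Figure D3:**
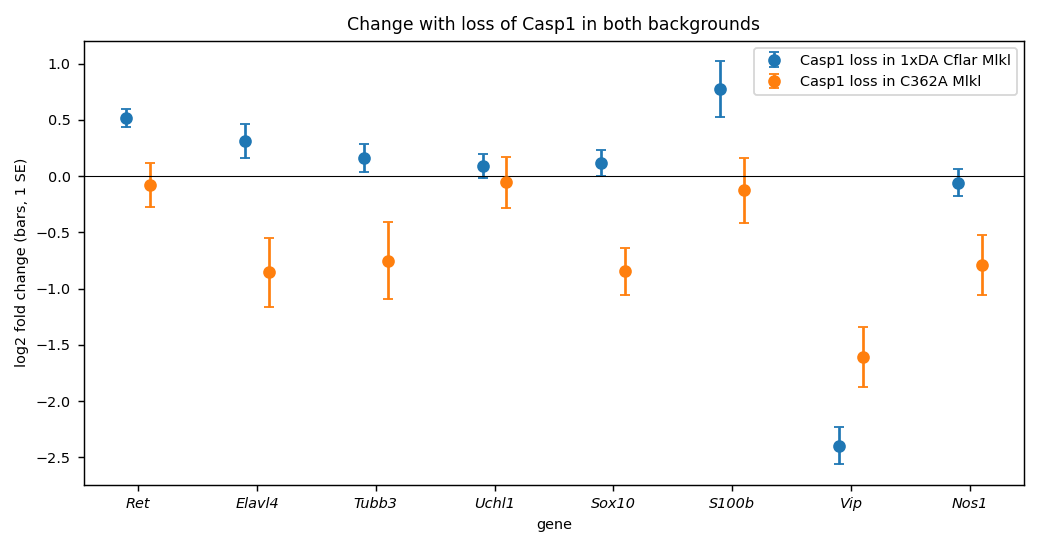
Log2 fold change (vertical axis, bars 1 SE) with loss of Casp1 for each gene (horizontal axis), in intestines of Casp8 1xDA/1xDA Cflar-/- Mlkl-/- (blue) and in intestines of Casp8 C362A/C362A Mlkl-/- (orange), 3 intestines per genotype. Vip lies at -2.40 and -1.61, and Elavl4 and Sox10 are above 0 in the first background and below it in the second.

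Ordered by mean RPKM, Vip had 2 levels that stood apart in the D387A set. Casp8 1xDA/1xDA Cflar-/- Mlkl-/- was at 71.5 ± 17.1 (SD, n = 3) and the Ifnar1-deficient genotype at 20.01 ± 3.76, and the other 4 genotypes, at 12.9 to 14.5, each overlapped their neighbour. In the C362A set the order was 50.8 ± 10.9 without Cflar, 26.4 ± 5.64 in Casp8 C362A/C362A Mlkl-/-, 9.12 ± 0.986 in controls and 8.67 ± 3.62 without Casp1, and only the last pair overlapped. For Tubb3, Elavl4 and Nos1 all 5 neighbouring pairs of genotypes overlapped in the D387A set, and for Tubb3, Elavl4 and Uchl1 all 3 in the C362A set.

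The MEFs gave levels outside the gut. Vip (at most 0.387 RPKM), Nos1 (at most 0.074), Elavl4 (at most 0.599) and Ret (at most 1.27) were low in all 6 cultures, 3 of each genotype, whose levels are given together. Tubb3 was at 20.8 to 35.6 RPKM, Uchl1 at 17.8 to 37.2, S100b at 1.48 to 3.19 and Sox10 at 0.662 to 1.99. Reads of every one of these genes, at low levels for Vip, Nos1, Elavl4 and Ret, were thus found in cultures of cells that are not enteric neurons or glia. The part of such cells in the intestinal values was not tested. Levels in MEFs and intestines were scaled separately.

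The genes around the 8 were read from lists of the same system. Of 12 transmitter and peptide genes tested, 7 rose and 1 fell in intestines of Casp8 1xDA/1xDA Cflar-/- Mlkl-/- (median log2 fold change 1.42, against -0.01 over all genes). Over all genes 29.9% rose and 29.5% fell in this comparison. Those that rose were Cartpt, Adcyap1, Penk, Tac1, Gal and Grp, which encode neuropeptides, and Th, which encodes the enzyme that starts catecholamine synthesis. Cartpt went from 6.40, 6.50 and 7.56 RPKM to 29.4, 41.5 and 43.6 RPKM (2.48 ± 0.18, adjusted p = 4.42e-09 by edgeR), and Adcyap1 from 0.193, 0.277 and 0.359 RPKM to 1.20, 1.26 and 1.88 RPKM (2.38 ± 0.30, adjusted p = 2.36e-06). Neither overlapped, as for Vip. Adcyap1 was low in controls, at no more than 0.359 RPKM, and may have been tested because of groups where it was high. Whether this holds for Th (1.89 ± 0.51) was not checked, and the direction of the list is not read from either of these genes. The acetylcholine genes Chat (0.42 ± 0.39), Slc18a3 (0.23 ± 0.18) and Slc5a7 (0.32 ± 0.19) did not pass (Chat and Slc18a3 overlap on 1 strand and may share reads), and Ddc, also expressed outside neurons, fell (-1.54 ± 0.16). Without Casp1 7 of these 12 genes were lower than with it, among them Cartpt at 6.91, 7.32 and 7.06 RPKM, and 1 was higher, against 22.5% and 24.5% of all genes.

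The peptide genes moved in the C362A set as well. Among intestines of Casp8 C362A/C362A Cflar-/- Mlkl-/- 7 of 12 rose and 1 fell (median log2 fold change 1.00), against 27.9% and 24.9% of all genes, with Grp at 2.97 ± 0.27 and Cartpt at 2.67 ± 0.24. Among intestines of Casp8 C362A/C362A Mlkl-/- 5 rose and 1 fell (22.4% and 19.7% of all genes), and without Casp1 8 of 12 were lower than with it and 1 was higher (15.5% and 17.9% of all genes). Of 11 pan-neuronal genes tested against controls in the genotypes without Cflar that kept Casp1, 1 rose and 1 fell with D387A (median -0.13), where 29.9% of all genes rose and 29.5% fell. With C362A 0 rose and 2 fell (median -0.34), where 27.9% of all genes rose and 24.9% fell. In the Ifnar1-deficient genotype 9 of the 11 fell against controls (median -0.51) and 0 rose, where 23.6% of all genes fell and 24.7% rose, with Elavl3 at -0.64 and Prph at -0.63. Among intestines of Casp8 C362A/C362A Mlkl-/- Casp1-/- 9 of 11 fell against controls (median -0.85), where 17.1% of all genes fell, with Elavl3 at -1.37 and Dcx at -1.23.

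**Figure D4:**
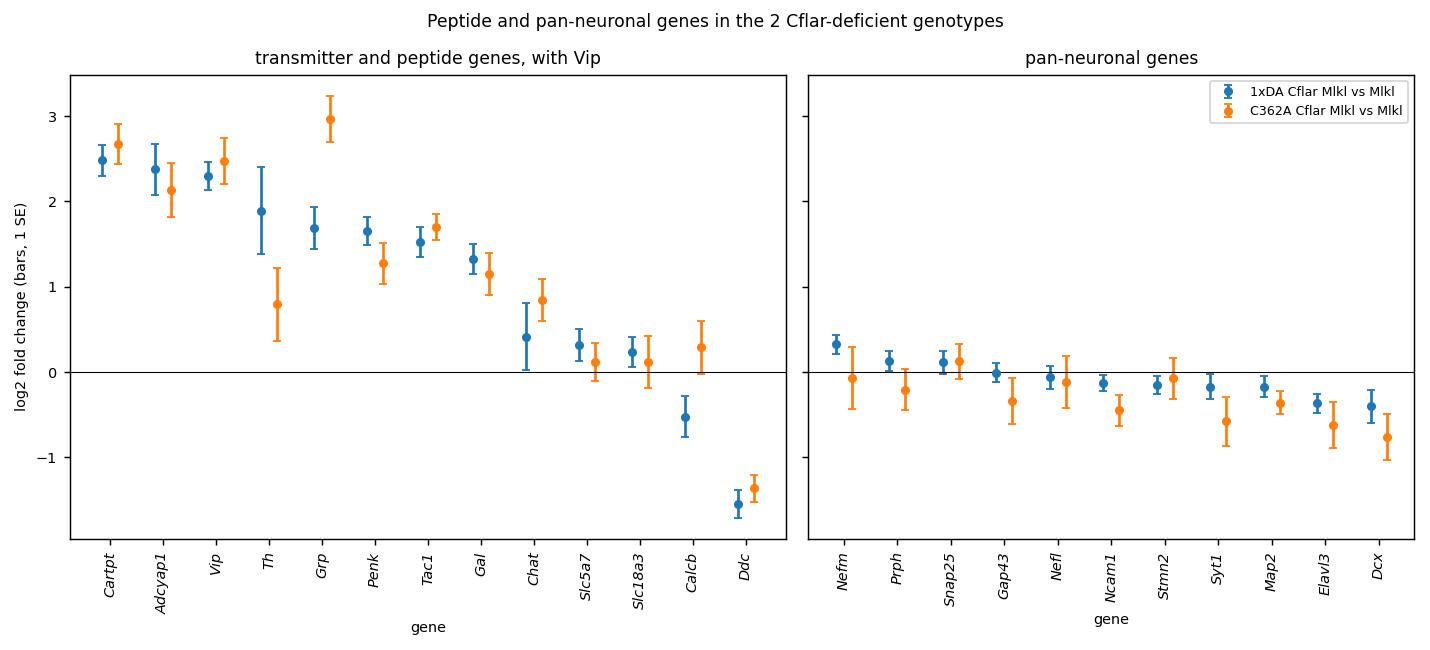
Log2 fold change against Mlkl-/- controls (vertical axis, bars 1 SE) of transmitter and peptide genes with Vip (left) and of pan-neuronal genes (right), for Casp8 1xDA/1xDA Cflar-/- Mlkl-/- (blue) and Casp8 C362A/C362A Cflar-/- Mlkl-/- (orange) intestines, 3 per genotype. Vip lies at 2.30 and 2.48 beside Cartpt at 2.48 and 2.67, and the pan-neuronal genes have medians of -0.13 and -0.34.

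Genes of crest progenitors and of GDNF-family and endothelin signalling were read beside Ret and Sox10. Among intestines of Casp8 1xDA/1xDA Cflar-/- Mlkl-/- 2 of 14 rose, Artn (0.84) and Foxd3 (0.71), and 2 fell, among them the ligand gene Nrtn (-0.92 ± 0.18, adjusted p = 0.000285 by edgeR). Over all genes 29.9% rose and 29.5% fell there. In the Ifnar1-deficient genotype 9 of 14 fell against controls, among them the GDNF co-receptor Gfra1 (-0.70) and Gdnf itself (-0.59), and 0 rose, where 23.6% of all genes fell and 24.7% rose. With C362A, Nrtn fell in Casp8 C362A/C362A Mlkl-/- (-1.12) and in intestines of Casp8 C362A/C362A Cflar-/- Mlkl-/- (-0.94). Without Casp1 8 of 14 were lower than in controls, among them Gfra1 (-0.98) and Gdnf (-0.68), where 17.1% of all genes were lower.

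Of the 8 other glial and Schwann genes, 1 rose and 3 fell in intestines of Casp8 1xDA/1xDA Cflar-/- Mlkl-/- (median 0.04), where 29.9% of all genes rose and 29.5% fell. Entpd2, an ectonucleotidase of glia, fell with S100b (-0.92), as did the neuregulin receptor Erbb3 (-0.60), whereas Gfap, an intermediate filament of reactive glia, rose from 7, 15 and 9 reads to 50, 64 and 91 reads (2.44 ± 0.36, adjusted p = 1.71e-05 by edgeR). Among intestines of Casp8 C362A/C362A Cflar-/- Mlkl-/- Gfap had 469, 153 and 71 reads against 6, 8 and 6 in controls (5.14 ± 0.68, adjusted p = 1.94e-05 by edgeR), while Entpd2 (-1.25) and Erbb3 (-0.90) fell. Cdh19, a cadherin of Schwann cell precursors, rose there as well (0.56 ± 0.21, adjusted p = 0.0339 by edgeR). Gfap was the 1 gene that rose with D387A and had few reads in controls, so it was tested because of the groups where it was high, and the direction of the list is not read from it.

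By likeness over the 30 intestines, measured as Pearson's r of log2 CPM centred within each set over 18195 genes other than the member itself, the genes nearest to Vip were Cartpt (0.986), Pdyn (0.965), which encodes the prodynorphin peptides, and Pdpn (0.964). Those nearest to Tubb3 were Phox2a (0.964), Eid1 (0.948) and Ina (0.946). Those nearest to Ret were Dnm3 (0.955), Sel1l (0.949) and Dgcr2 (0.946), and to S100b Tef (0.953), Piwil2 (0.947) and Gm31752 (0.938). Elavl4 was nearest to Cadm1 (0.969), Gng2 (0.954) and Sema5a (0.953), and Sox10 to Mapt (0.911), Fam168a (0.906) and Ptpn14 (0.900). Uchl1 was nearest to Myl9 (0.943), Sncg (0.928) and Stmn3 (0.913), and Nos1 to Dpysl5 (0.914), Map1a (0.897) and Gdap1l1 (0.883). The 30 points share genotypes and tissue composition, so these are descriptions.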

How the data were processed

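Gene counts were those the authors deposited, one table per library, made from single-end reads aligned to GRCm38 with GSNAP and kept where uniquely mapped, with no normalization. The counting program, its annotation and its use of strand are not given in the sources used here, and the labels and the paper's methods differ on the library kit. The authors also deposited RPKM, which served only as an alternative. The labels call replicates biological. The members and all lists were chosen with earlier results of these data known.

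The test was that of edgeR 4.0.16 (R 4.3.3): filterByExpr (minimum count 10, minimum total 15), TMM, the quasi-likelihood test and Benjamini-Hochberg adjustment over all genes, with all genotypes of a set in 1 fit (18360 genes in 18 libraries, 19408 in 12) and 19643 genes in 30 libraries for differences between sets. Passing means an adjusted p under 0.05. Log2 fold changes carry a prior count of 0.125 and SE is the fold change over the root of F. The biological coefficient of variation was 0.132 and 0.162. Replicate pairs had a chi-square per gene of 5.005 to 70.8, where sampling noise alone gives about 1, so none were duplicates. Named were the 8 genes everywhere, up to 3 genes per direction and list with the largest change among those passing, targeted genes, and the 3 genes most like each member; other members of the lists named beyond these were chosen after their values were seen. Other cell types are given by counts and summed CPM. Some genes of the lists are counted but not reported here by name.

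Alternatives were RLE scaling, no filter or a mean of at least 50 reads, a prior count of 2, limma-voom (limma 3.58.1), DESeq2 1.42.0, fits of only the groups compared, a replicate block, pooled controls and leaving out each library. Pooled controls put the Mlkl-/- intestines of both sets in 1 group, with no term for the set. The edgeR, limma-voom and DESeq2 tests were also run on simulated counts with known changes. All recovered the 4-fold changes, but DESeq2 made more false calls than its nominal level, so it is the more liberal alternative. False calls by edgeR and limma-voom were slightly above the nominal level on average, with 1 draw of each above the bound first set. The false calls of DESeq2 were recorded without a bound, a choice made after they had exceeded that bound.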

Additional observations from a re-analysis of the deposited data

Results flagged for a closer look

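The effect of losing Casp1 differed between intestines of Casp8 1xDA/1xDA Cflar-/- Mlkl-/- and those of Casp8 C362A/C362A Mlkl-/- for 3 of the 8 genes, by the test of the difference itself (edgeR quasi-likelihood test, Benjamini-Hochberg adjusted), where 16.9% of all genes passed (10.9% higher, 6.03% lower). The difference in log2 fold change was 1.19 for Elavl4 (adjusted p = 0.0159), 0.99 for Sox10 (adjusted p = 0.00477) and 0.62 for Ret (adjusted p = 0.0369). Sox10 passed without each of the 12 libraries in turn. Elavl4 was lost without replicate 1 of Casp8 1xDA/1xDA Cflar-/- Mlkl-/- Casp1-/- (adjusted p = 0.0526 by edgeR) or replicate 1 of Casp8 C362A/C362A Mlkl-/- Casp1-/- (0.0518). Ret passed in 3 of these 12 fits, with adjusted p up to 0.0944. With no filter, with a filter at a mean of 50 reads and by DESeq2, 5 of the 8 passed, Tubb3 and Nos1 with these 3, where 7.76%, 24.2% and 22.3% of all genes passed.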

How the results depend on the processing

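The number of the 8 genes that passed was recomputed under each alternative. With the controls of both sets pooled it moved as follows, each against Mlkl-/- controls and with the share of all genes in brackets. For Casp8 1xDA/1xDA Cflar-/- Mlkl-/- Casp1-/- it went from 3 to 1 (21.4% to 24.9%). With Ifnar1 also lost it went from 7 to 4 (48.3% to 47.2%), and with Fadd also lost from 2 to 1 (18.4% to 21.3%). For Casp8 C362A/C362A Mlkl-/- it went from 3 to 7 (42.1% to 54.6%) and without Cflar from 3 to 6 (52.8% to 62.2%). The log2 fold change of Nos1 in Casp8 1xDA/1xDA Cflar-/- Mlkl-/- turned from -0.40 to 0.0353. In a fit of only the groups compared it moved from 6 to 2 for the loss of Ifnar1 (30.6% to 7.51% of all genes). For the loss of Cflar in C362A it moved from 2 to 1 (19.4% to 14.5%). The difference in Casp1 loss went from 3 to 5 with no filter, with a mean of at least 50 reads and by DESeq2, which is liberal. Over all genes 16.9% passed in the main fit and 7.76%, 24.2% and 22.3% in these. The pooled fit has no term for the set. The mean RPKM of all 8 genes was lower in the C362A than in the D387A controls, for Tubb3 13.2 against 22.0, each scaled within its set. What this contributed to the moves with pooled controls was not tested, nor was the cause of the other moves.

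Replicate numbers did not pair the samples: correlations of same-numbered libraries had medians of -0.008 and -0.057. The replicate block moved the count for loss of Casp1 in C362A from 4 to 2, losing Elavl4 (adjusted p = 0.053 by edgeR) and Nos1 (0.0515), and that for Casp8 C362A/C362A Mlkl-/- against controls from 3 to 2, losing Ret (0.0503). Over all genes the share that passed went from 33.5% to 30.5% and from 42.1% to 39.7% in these comparisons. The replicate block changed no other call of the 8 genes. Of 18 libraries in the D387A set 8 correlated best with their own number, and of 12 in the C362A set 2 did.

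Leaving out single libraries gave 4 to 4 genes for Casp8 1xDA/1xDA Cflar-/- Mlkl-/-, 0 to 0 for Casp8 1xDA/1xDA, 3 to 3 without Casp1, 6 to 7 without Casp1 and Ifnar1 and 2 to 3 without Casp1 and Fadd, all against controls. The range was 2 to 4 for loss of Casp1, 3 to 7 for loss of Ifnar1 and 0 to 2 for loss of Fadd. In the C362A set it was 2 to 3 for Casp8 C362A/C362A Mlkl-/-, 3 to 5 without Cflar and 4 to 6 without Casp1 against controls, 2 to 4 for loss of Casp1 and 0 to 2 for loss of Cflar. The differences between sets gave 0 to 1 and 1 to 4. S100b, with 20 to 135 reads per intestine, had the fewest reads of the 8, which limits its precision.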
